A study of Mus musculus with 8 samples.

Results

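Glycolysis and hypoxia response genes were examined in BV-2 cells as a set of 32 genes chosen by name: the glucose transporters and enzymes that turn glucose into lactate, the oxygen-sensing genes, and textbook targets of the hypoxia-inducible factor HIF-1. They were read from 22460 genes tested in all, with 1 probe per gene, the one with the highest mean signal. BV-2 is a line of mouse microglia, made immortal by retroviral oncogenes, that stands in for the macrophages of the brain. Total RNA was measured on 8 single-colour Agilent arrays after 24 h in 4 groups of 2 arrays each, described by the submitters as biological duplicates: LPS+HF (1 µg/mL lipopolysaccharide and 100 µg/mL of a fraction extracted in hexane from Amauroderma rugosum, a mushroom), LPS (1 µg/mL lipopolysaccharide alone), HF (100 µg/mL of the hexane fraction alone) and control (untreated). All groups share the same line and medium with serum and insulin, whether controls received the solvent of HF is not given in the sources used here, and HF is a mixture. The study's title asks what HF does in LPS-stimulated cells. Lipopolysaccharide is a bacterial wall component that activates macrophages through Toll-like receptor 4.

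Glycolysis splits glucose into pyruvate, and lactate dehydrogenase turns pyruvate into lactate, which leaves the cell through monocarboxylate transporters. HIF-1 is made of an oxygen-controlled alpha subunit, encoded by Hif1a, and a constant beta subunit: prolyl hydroxylases of the Egln family mark the alpha subunit for destruction when oxygen is present, and when it is stable HIF-1 raises most genes of glycolysis. Macrophages activated by LPS are known for higher glycolysis and for HIF-1 alpha that is stable in normal oxygen, and Hif1a is itself a known target of NF-kappaB, the main transcription factor downstream of Toll-like receptors.

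All 8 arrays lay on 1 slide read in 1 scan. The array of control replicate 1 was uneven. At 16.8% of its spots the local background-subtracted signal was over 4-fold below that of the arrays not marked by the quality report (called dimmed here), and after the scanner's own correction its local deviation from them, centred on its median, ran from -2.33 to 3.14 log2 units. Its spots of the same probe varied with a coefficient of 50.9%, where the other arrays had 6.73% to 9.18%. The report marked it and HF replicate 1 (0.857% of spots dimmed) for evaluation. Of the 32 genes, 7 had their probe in the dimmed area of control replicate 1 (Pfkp, Aldoc, Pkm, Slc16a3, Egln3, Adm and Ankrd37) and Ankrd37 also in that of HF replicate 1. Of the 7, Pfkp, Pkm, Slc16a3 and Adm had a higher processed signal on control replicate 1 than on control replicate 2, and Aldoc, Egln3 and Ankrd37 a lower one. A result is also given without control replicate 1 where its call changed or its fold moved by over 1.5 times. Such a fit holds 1 control array, and its p-values assume that this array varies like the other groups. HF arrays lay in another row of the slide than the arrays without HF, and LPS arrays in other columns than those without LPS, so position on the slide and treatment cannot be told apart. All 11 macrophage and microglia markers, among them Itgam, Csf1r and Aif1, were well above background on every array. Of them 2 rose and 1 fell in LPS minus control, and 1 fell in HF minus control. In LPS+HF minus LPS 2 fell, and in LPS+HF minus HF 1 rose. Of 5 markers of homeostatic microglia, 2 were well above background on every array and 1 on none. Of the 4 tested, 2 fell in LPS minus control, 1 fell in HF minus control, and 1 rose and 1 fell in LPS+HF minus LPS. The shares of all genes are given with each comparison below. Markers of astrocytes, neurons, oligodendrocytes, fibroblasts and endothelial cells did not pass in any of the 4 comparisons between groups. The oligodendrocyte list was the one of these with all its markers (4 of 4) well above background on every array. Its summed signals were 20.9 and 21.0 in LPS+HF, 36.3 and 39.9 in LPS, 31.9 and 58.8 in HF and 47.6 and 65.0 in control cells, and its part in the results was not tested.

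Values are signals in multiples of the array's own 75th percentile of processed signal. Each gene was read by its own probe, so levels of different genes cannot be set against each other. A gene passed, and is said to have risen or fallen, with a Benjamini-Hochberg adjusted p under 0.05 from limma over all genes tested. Differences are on the log2 scale with their standard error. Of the 32 genes, 31 were tested and 29 were well above background on all arrays. The gene left untested, Slc2a3, encodes a high-affinity glucose transporter, was well above background on 3 of 8 arrays and had signals between 0.0115 and 0.134.

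Much of the set was lower with LPS. Of 31 genes, 15 fell and 2 rose in LPS minus control, where 6.34% of all genes fell and 4.8% rose, and the median difference was -0.92 against -0.08 over all genes. The falls covered glucose uptake, several glycolytic enzymes, the lactate exporter, an oxygen sensor and most of the other hypoxia targets. The rises were Hif1a and Pfkfb3. Scaling to the median in place of the 75th percentile shifts all genes alike. The median of all genes then came to 0.27 and that of the set to -0.58. Of the set 9 genes fell and 1 rose, where 262 fell and 572 rose of all 22460 genes. With quantile normalization the set's median was -0.50 against 0.04 over all genes. Here 11 of the set fell and 2 rose, where 1076 of all genes fell and 1183 rose. Since each array measured the RNA of a whole flask, a change in all cells and a change in some of them cannot be told apart.

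**Figure D1:**
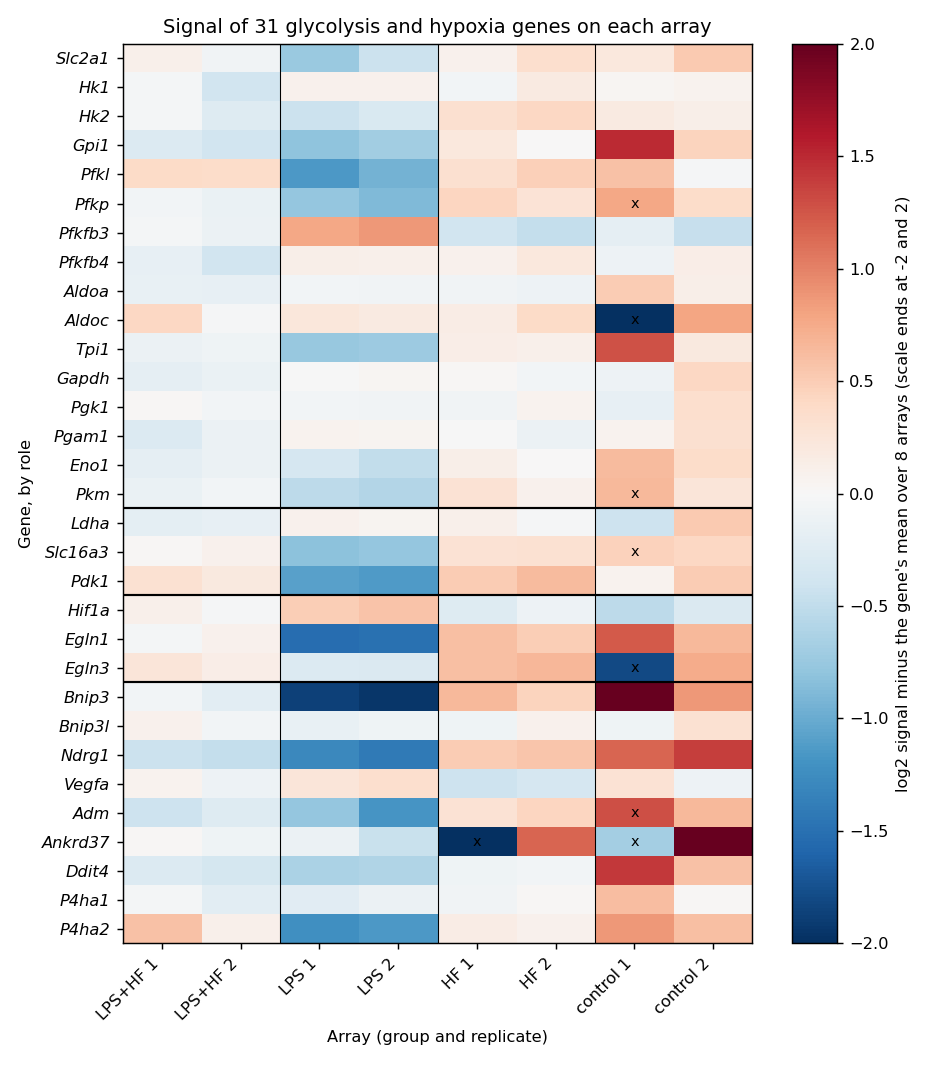
Log2 signal of the 31 tested genes (rows, grouped by role: glucose uptake and glycolysis, lactate and pyruvate fate, oxygen sensing, other hypoxia targets) on the 8 arrays (columns), each as the difference from the gene's mean over the 8 arrays, with a cross where the probe lay in a dimmed area of the array. Both LPS arrays are low for Egln1, Bnip3, Ndrg1, P4ha2 and Pdk1 and high for Pfkfb3 and Hif1a, and control replicate 1 is set apart from control replicate 2 for Aldoc, Egln3 and Ankrd37.

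At the entry of the pathway, Slc2a1, the widely expressed glucose transporter GLUT1, had signals of 13.3 and 16.6 in LPS cells and 25.8 and 32 in control cells. It fell by 0.95 ± 0.20 (adjusted p = 0.0345). The 2 hexokinases, which trap glucose in the cell, did not pass. Hk1 had 26.7 and 26.7 in LPS and 25.8 and 26.5 in control cells, a difference of 0.03 ± 0.17. Hk2, the inducible form, had 5.02 and 5.44 in LPS and 7.60 and 7.29 in control cells, and its difference of -0.51 ± 0.14 missed the threshold (adjusted p = 0.0777).

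The next 3 genes along the pathway fell too. Gpi1, glucose-6-phosphate isomerase, had 182 and 195 in LPS and 888 and 432 in control cells, a difference of -1.71 ± 0.33 (adjusted p = 0.0283). Pfkl, the liver-type subunit of phosphofructokinase, which commits sugar to glycolysis, had 3.55 and 4.06 in LPS and 11.7 and 7.68 in control cells, a difference of -1.32 ± 0.22 (adjusted p = 0.0203). Its platelet-type partner Pfkp had 10.7 and 9.86 in LPS and 31.3 and 23.6 in control cells, a difference of -1.41 ± 0.18 (adjusted p = 0.00905). In all of these genes both LPS arrays lay below both control arrays, and for Gpi1 the control arrays themselves were more than a log2 unit apart. Without control replicate 1 the differences were -1.20 for Gpi1, -1.02 for Pfkl and -1.20 for Pfkp, beside -1.11 for Slc2a1. Pfkfb3 went the other way: it makes fructose-2,6-bisphosphate, the strongest activator of phosphofructokinase. Its signals were 8.62 and 9.14 in LPS and 4.44 and 3.64 in control cells, and it rose by 1.14 ± 0.15 (adjusted p = 0.0105). Its relative Pfkfb4 differed by 0.09 ± 0.16 and did not pass.

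Of the 8 genes of the later steps 3 fell, Tpi1, Eno1 and Pkm. Tpi1, triosephosphate isomerase, had 99.5 and 101 in LPS and 404 and 191 in control cells, a difference of -1.47 ± 0.33 (adjusted p = 0.0442), and -0.93 without control replicate 1. Eno1, the main enolase, had 283 and 256 in LPS and 560 and 465 in control cells, a difference of -0.92 ± 0.16 (adjusted p = 0.0198). Pkm, the pyruvate kinase of macrophages, had 93.8 and 89.7 in LPS and 211 and 159 in control cells and fell by 1.00 ± 0.18 (adjusted p = 0.0239), a direction that turned to 0.45 with normexp background correction and quantile normalization together (adjusted p = 0.603). The remaining genes, which encode aldolases (Aldoa, Aldoc), glyceraldehyde-3-phosphate dehydrogenase (Gapdh), phosphoglycerate kinase (Pgk1) and phosphoglycerate mutase (Pgam1), did not pass, with differences between -0.38 (Aldoa) and -0.13 (Pgam1) for all but Aldoc. Aldoc had 102 and 98.9 in LPS and 20.02 and 150 in control cells, and its difference of 0.87 ± 0.86 turned to -0.58 without control replicate 1 (adjusted p = 0.122). Gapdh, often used as a loading reference, had 606 and 624 in LPS and 568 and 813 in control cells, a difference of -0.14 ± 0.20. Actb, encoding beta-actin and outside the set, had 583 and 572 in LPS and 1048 and 752 in control cells, a difference of -0.62 that did not pass (adjusted p = 0.103).

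At the exit of the pathway the 3 genes differed. Ldha, the A subunit of lactate dehydrogenase, had 522 and 509 in LPS and 370 and 706 in control cells, so that the LPS arrays lay between the 2 control arrays, with a difference of 0.01 ± 0.30. Slc16a3, the lactate exporter MCT4, had 32.4 and 33.3 in LPS and 78.3 and 76.1 in control cells and fell by 1.23 ± 0.12 (adjusted p = 0.00495). Pdk1, the kinase that shuts pyruvate out of the mitochondrion by inhibiting pyruvate dehydrogenase, had 3.15 and 3.03 in LPS and 6.99 and 9.51 in control cells and fell by 1.40 ± 0.18 (adjusted p = 0.00999).

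Of the oxygen-sensing genes, Hif1a had 5.93 and 6.28 in LPS and 2.93 and 3.46 in control cells and rose by 0.94 ± 0.15 (adjusted p = 0.0181). Egln1, the main prolyl hydroxylase acting on HIF-1 alpha and itself a HIF-1 target, had 0.257 and 0.261 in LPS and 1.74 and 1.15 in control cells. It was 5.46-fold lower, a difference of -2.45 ± 0.22 (adjusted p = 0.00355). For both genes the LPS arrays lay close together and outside the range of the control arrays. Egln3, a strongly hypoxia-induced hydroxylase, had 1.44 and 1.42 in LPS and 0.493 and 2.89 in control cells, the lower control value lying in the dimmed area, and did not pass (0.26 ± 0.74). Without control replicate 1 it fell by 1.02 (adjusted p = 0.00679).

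Among the other hypoxia targets 5 of 9 fell, and Bnip3 and Ndrg1 had the largest falls of the 15 genes. Bnip3, a mitophagy receptor, had 23.6 and 22.5 in LPS and 372 and 158 in control cells, a difference of -3.39 ± 0.38 (adjusted p = 0.00665) that came to -2.77 without control replicate 1 and -4.01 without control replicate 2. Ndrg1, a stress-responsive gene strongly induced by hypoxia, had 12.7 and 11.6 in LPS and 69.4 and 81.2 in control cells, a difference of -2.62 ± 0.14 (adjusted p = 0.00099). P4ha2, a subunit of the prolyl hydroxylase of collagen, had 0.192 and 0.201 in LPS and 0.812 and 0.675 in control cells, a difference of -1.91 ± 0.20 (adjusted p = 0.00562). Its relative P4ha1 had 2.28 and 2.47 in LPS and 4.08 and 2.71 in control cells and did not pass (-0.49 ± 0.22). Ddit4, which encodes an inhibitor of mTORC1 signalling (REDD1), had 25.1 and 25.5 in LPS and 104 and 58.2 in control cells, a difference of -1.62 ± 0.27 (adjusted p = 0.0192). Adm, the gene of the peptide hormone adrenomedullin, had 0.0367 and 0.0277 in LPS and 0.153 and 0.0982 in control cells. It was well above background on no LPS array and on 1 of 2 control arrays, control replicate 2. Its fall passed (adjusted p = 0.0102). With each LPS value raised to its array's lowest signal above background, it was 2.23-fold lower in LPS than in control cells. This fold is no lower bound, since the control mean includes control replicate 1, where Adm lay in the dimmed area and was not well above background. Bnip3l, a relative of Bnip3, Vegfa, the vascular growth factor, and Ankrd37, an ankyrin-repeat gene induced by hypoxia, did not pass, with differences of -0.22 ± 0.18, 0.19 ± 0.18 and -1.23 ± 1.41. Ankrd37 had 2.66 and 2.13 in LPS and 1.80 and 17.2 in control cells. Without control replicate 1 its difference was -2.85 (adjusted p = 0.214), larger in size than that of Bnip3 or Ndrg1. With a correction for local unevenness of the arrays, which drops dimmed spots and so control replicate 1 for this gene, it was -2.83 (adjusted p = 0.00166).

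The counts moved with the arrays. With only the LPS and control arrays fitted, limma passed 0 of the 31 genes and 67 of all 22460 (3883 at an unadjusted p under 0.05). The main fit pools the spread of the 4 groups for each gene. Over all genes, the difference between replicates had a standard deviation of 0.99 log2 units in control, 0.49 in HF, 0.34 in LPS+HF and 0.28 in LPS cells. With 1 control array left out, the control group has no spread of its own, and the spread comes from the other groups. Without control replicate 1, 17 of 31 genes fell (11.5% of all genes did), the 15 above plus Ldha (-0.45) and Egln3, and the same 2 rose (8.81% of all genes did). With the correction for local unevenness 20 fell (of 3714 genes in all) and 2 rose (of 2897 in all). With 1 LPS array left out, whichever it was, the lone LPS array was assumed to vary like the other groups, and 1 gene of the set, Ndrg1, still passed (of 184 genes in all without LPS replicate 1 and 175 without LPS replicate 2). With 1 HF array left out 10 passed (of 1112 genes in all), with 1 LPS+HF array left out 9 (of 1109 in all), and without control replicate 2, which left the uneven array alone, 23 (of 11823 in all).

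**Figure D2:**
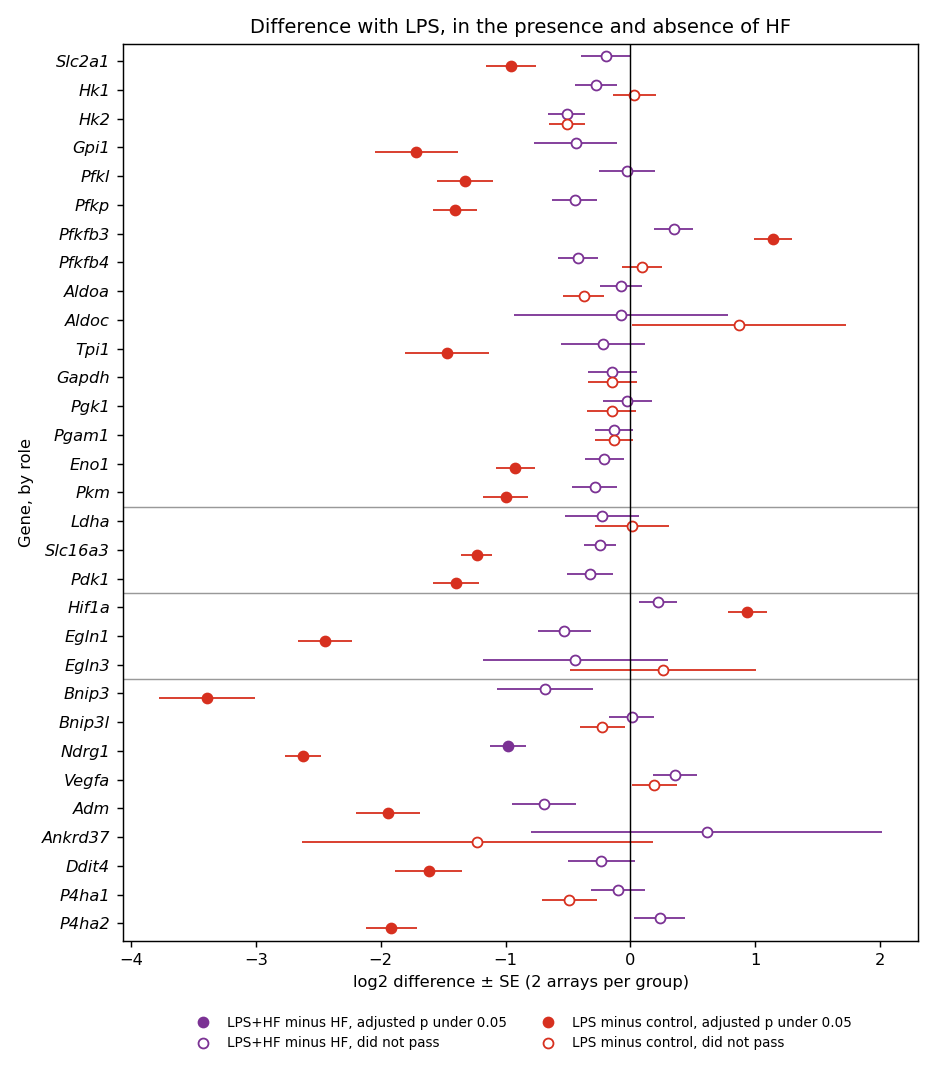
Log2 difference with its standard error for each of the 31 genes in LPS+HF minus HF (upper mark of each pair) and LPS minus control (lower mark), 2 comparisons that share no array; filled marks passed at an adjusted p under 0.05. Ndrg1 is filled in both, at -0.98 in LPS+HF minus HF and -2.62 in LPS minus control, and the other 16 filled marks belong to LPS minus control.

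Part of the set was higher in LPS+HF than in LPS cells. In LPS+HF minus LPS, 6 of 31 genes rose and 1 fell, where 2.99% of all genes rose and 3.26% fell, and the median difference was 0.27 against -0.07 over all genes. The genes that rose were Pfkl, Slc16a3, Pdk1, Egln1, Ndrg1 and P4ha2, and the one that fell was Pfkfb3. LPS minus control shares the LPS arrays with this comparison, so that a high or low value on those arrays enters both with opposite signs; the values of the 4 groups are therefore given side by side.

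Pfkl had 10.2 and 10.1 in LPS+HF cells, 3.55 and 4.06 in LPS, 9.81 and 10.9 in HF and 11.7 and 7.68 in control cells, and rose by 1.42 ± 0.22 (adjusted p = 0.0263). Its LPS+HF arrays lay above both LPS arrays and inside the range of the control arrays, whose upper end was the uneven control replicate 1. They lay above control replicate 2. Pfkfb3 had 4.87 and 4.63 in LPS+HF cells, 8.62 and 9.14 in LPS, 3.86 and 3.62 in HF and 4.44 and 3.64 in control cells, a difference of -0.90 ± 0.15 (adjusted p = 0.0315). Its LPS+HF arrays lay far below the LPS arrays and above both control arrays. Slc16a3 had 58.0 and 60.6 in LPS+HF cells, 32.4 and 33.3 in LPS, 69.5 and 70.7 in HF and 78.3 and 76.1 in control cells, and rose by 0.85 ± 0.12 (adjusted p = 0.0226). Pdk1 had 8.29 and 7.66 in LPS+HF cells, 3.15 and 3.03 in LPS, 9.53 and 10.4 in HF and 6.99 and 9.51 in control cells, a difference of 1.37 ± 0.18 (adjusted p = 0.0185). For the lactate exporter the LPS+HF arrays stayed below both control arrays. For Pdk1 they lay above the uneven control replicate 1 and below control replicate 2.

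Egln1 had 0.716 and 0.786 in LPS+HF cells, 0.257 and 0.261 in LPS, 1.12 and 1.04 in HF and 1.74 and 1.15 in control cells, and rose by 1.53 ± 0.22 (adjusted p = 0.0204). Its order was control and HF highest, LPS+HF next and LPS lowest, and the HF arrays lay below both control arrays without passing. Hif1a had 4.54 and 4.17 in LPS+HF cells, 5.93 and 6.28 in LPS, 3.54 and 3.94 in HF and 2.93 and 3.46 in control cells, a difference of -0.49 ± 0.15 that did not pass (adjusted p = 0.122). Its LPS+HF arrays nonetheless lay below both LPS arrays and above all HF and control arrays.

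Ndrg1 had 23.1 and 22.5 in LPS+HF cells, 12.7 and 11.6 in LPS, 44.4 and 45.5 in HF and 69.4 and 81.2 in control cells, and rose by 0.90 ± 0.14 (adjusted p = 0.0269). Here the 4 groups did not overlap, and LPS+HF arrays stayed far below the control arrays. P4ha2 had 0.672 and 0.482 in LPS+HF cells, 0.192 and 0.201 in LPS, 0.495 and 0.472 in HF and 0.812 and 0.675 in control cells, a difference of 1.53 ± 0.20 (adjusted p = 0.0176). Bnip3 had 83.3 and 74.3 in LPS+HF cells, 23.6 and 22.5 in LPS, 136 and 118 in HF and 372 and 158 in control cells, and its difference of 1.77 ± 0.38 was the largest in size of the set but just missed the threshold (adjusted p = 0.0535). Its control arrays were the farthest apart of the 4 groups, and its 2 other probes passed with 1.80 (adjusted p = 0.0122) and 1.81 (adjusted p = 0.0112).

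**Figure D3:**
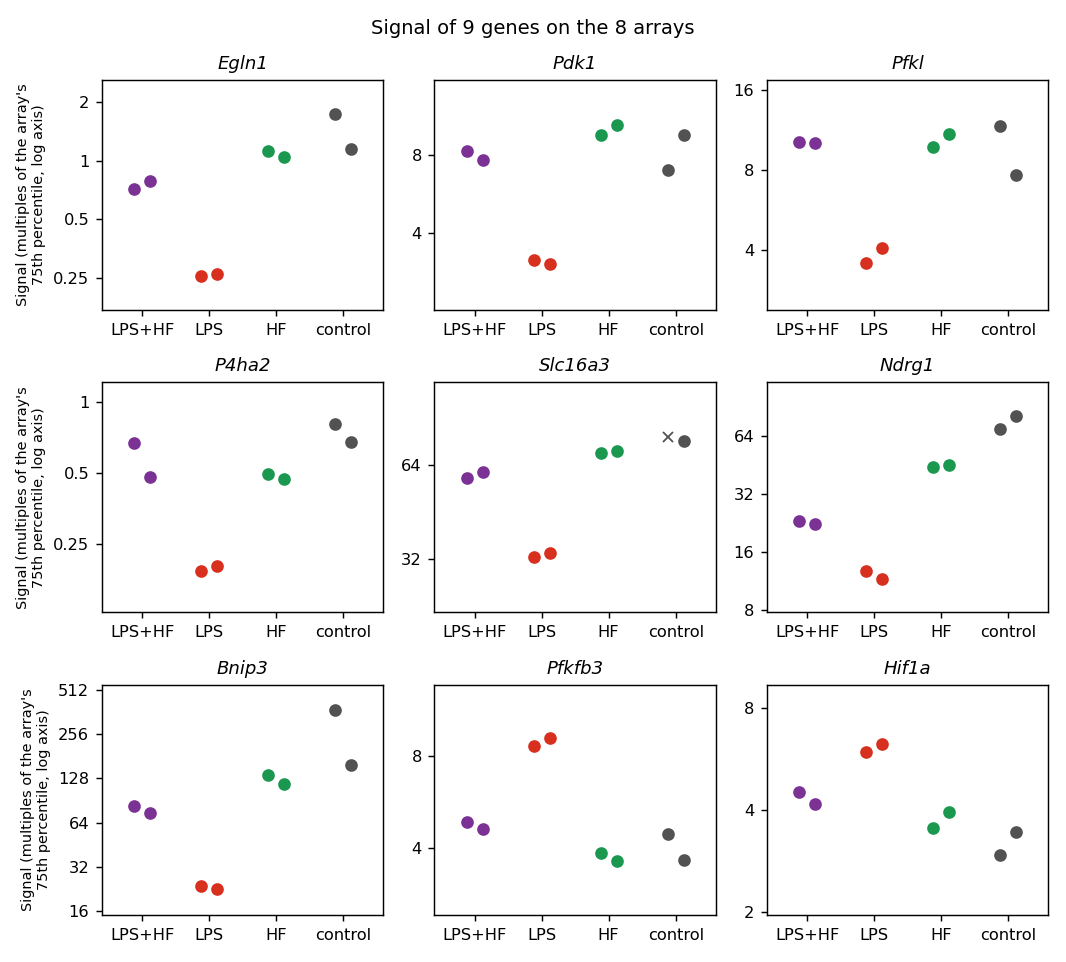
Signal (multiples of the array's 75th percentile, log axis) of 9 genes on each of the 8 arrays, by group; a cross marks a probe in the dimmed area of control replicate 1. In Egln1, Pdk1, Pfkl, P4ha2, Slc16a3, Ndrg1 and Bnip3 both LPS arrays are the lowest of the 8, and in Pfkfb3 and Hif1a they are the highest.

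The other genes that fell with LPS did not pass in the comparison of LPS+HF with LPS. Pfkp had 17.5 and 16.7 in LPS+HF and 10.7 and 9.86 in LPS cells, a difference of 0.74 ± 0.18 (adjusted p = 0.0688), and its second probe passed with 0.65 (adjusted p = 0.0440). Tpi1 had 155 and 158 in LPS+HF and 99.5 and 101 in LPS cells, a difference of 0.64 ± 0.33. Slc2a1 had 24.0 and 21.2 in LPS+HF and 13.3 and 16.6 in LPS cells, a difference of 0.60 ± 0.20. In all of these the arrays of the groups did not overlap. Gpi1, Pkm, Eno1 and Ddit4 had differences between 0.27 (Eno1) and 0.46 (Pkm), and Adm had 0.0470 and 0.0528 in LPS+HF and 0.0367 and 0.0277 in LPS cells, of which LPS+HF replicate 2 alone was well above background. Gapdh had 536 and 556 in LPS+HF and 606 and 624 in LPS cells, a difference of -0.17 ± 0.20, and Ldha had 429 and 436 in LPS+HF and 522 and 509 in LPS cells, a difference of -0.25 ± 0.30. The differences of the remaining 12 genes lay between -0.38 (Pfkfb4) and 0.47 (Egln3).

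These calls rest on the spread shared by the 4 groups, and control arrays enter this comparison through it. They also entered the choice of the probe for each gene and the filter on dim probes. With 1 control array left out, whichever it was, 15 genes rose (15% of all genes did) and Pfkfb3 and Hif1a fell (14.3% of all genes did); the added rises were Slc2a1, Gpi1, Pfkp, Tpi1, Pkm, Egln3, Bnip3, Adm and Ddit4. Leaving out any 1 LPS, HF or LPS+HF array left 0 of the 31 genes passing with limma. Over all genes 309 passed with 1 HF array left out, whichever it was, 52 without LPS+HF replicate 1 and 7 without LPS+HF replicate 2, and with 1 LPS array left out 0 of all genes passed (2981 without LPS replicate 1 and 3115 without LPS replicate 2 at an unadjusted p under 0.05).

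**Figure D4:**
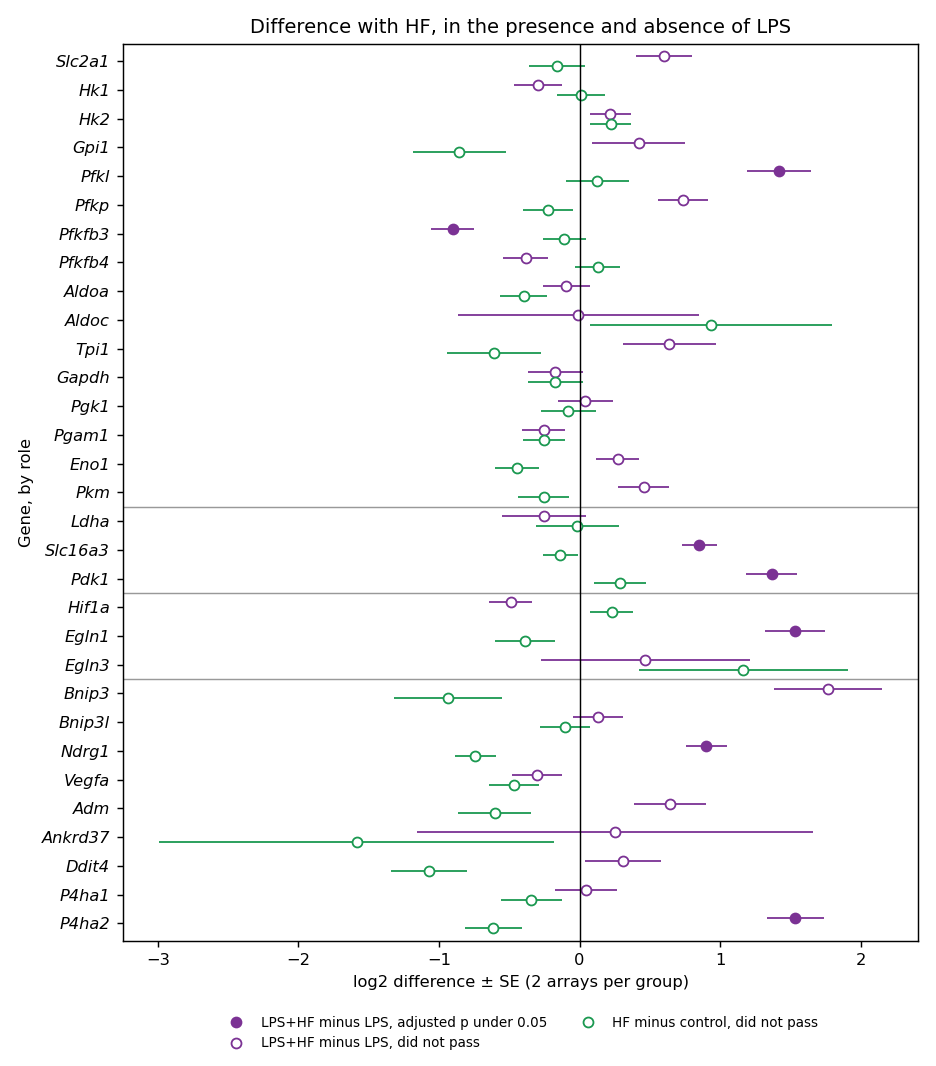
Log2 difference with its standard error for each of the 31 genes in LPS+HF minus LPS (upper mark of each pair) and HF minus control (lower mark), 2 comparisons that share no array; filled marks passed at an adjusted p under 0.05. The 7 filled marks belong to LPS+HF minus LPS, from Pfkfb3 at -0.90 to Egln1 and P4ha2 at 1.53, and no gene is filled in HF minus control.

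The promoters of the genes that fell with LPS and rose in LPS+HF minus LPS are shown for Pfkl, Slc16a3, Pdk1, Egln1 and P4ha2, since these genes moved together; Ndrg1 had no entry in the table used. Each is the 250 bases before the start of transcription, 5′ to 3′ on the strand of the gene, from RefSeq on build GRCm38.p6, with matches to ACGTG or GCGTG, the core of the hypoxia response element that HIF-1 binds, in capitals on either strand (on the other strand they read CACGT and CACGC). Pfkl lies on the minus strand at chr10:78009808-78010057, Slc16a3 on the plus strand at chr11:120948817-120949066, Pdk1 on the plus strand at chr2:71872974-71873223, Egln1 on the minus strand at chr8:124949255-124949504 and P4ha2 on the plus strand at chr11:54100674-54100923.
Pfkl: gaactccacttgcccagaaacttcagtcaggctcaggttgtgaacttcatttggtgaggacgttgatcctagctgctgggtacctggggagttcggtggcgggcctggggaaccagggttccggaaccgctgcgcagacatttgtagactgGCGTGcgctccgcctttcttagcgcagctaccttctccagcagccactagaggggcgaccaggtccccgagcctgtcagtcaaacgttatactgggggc
Slc16a3: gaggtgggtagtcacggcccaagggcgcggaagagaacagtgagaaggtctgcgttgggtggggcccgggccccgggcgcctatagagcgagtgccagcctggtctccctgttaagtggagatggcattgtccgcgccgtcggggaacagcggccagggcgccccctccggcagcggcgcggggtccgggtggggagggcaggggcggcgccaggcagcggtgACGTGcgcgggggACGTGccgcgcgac
Pdk1: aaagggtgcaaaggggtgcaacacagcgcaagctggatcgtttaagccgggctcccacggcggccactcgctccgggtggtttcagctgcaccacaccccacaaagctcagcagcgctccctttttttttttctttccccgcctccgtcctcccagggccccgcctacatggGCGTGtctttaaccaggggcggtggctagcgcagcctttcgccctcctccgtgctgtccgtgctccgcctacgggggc
Egln1: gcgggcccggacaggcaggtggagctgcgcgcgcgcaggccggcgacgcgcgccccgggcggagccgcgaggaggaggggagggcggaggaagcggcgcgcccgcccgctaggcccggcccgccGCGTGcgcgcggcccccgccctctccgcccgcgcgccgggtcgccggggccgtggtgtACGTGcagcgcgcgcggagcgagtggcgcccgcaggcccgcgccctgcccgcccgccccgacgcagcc
P4ha2: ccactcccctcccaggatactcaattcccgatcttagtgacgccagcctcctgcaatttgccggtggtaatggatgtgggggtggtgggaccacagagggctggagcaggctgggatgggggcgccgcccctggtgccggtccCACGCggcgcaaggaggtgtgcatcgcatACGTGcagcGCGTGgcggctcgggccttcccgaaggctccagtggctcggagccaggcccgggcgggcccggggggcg

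Pfkl and Pdk1 each hold 1 match, Slc16a3 and Egln1 2 and P4ha2 3. Of these 5 genes, the matches closest to the start are those of Slc16a3, 27 and 14 bases before it. Pdk1 has another listed start, whose window holds no match. Over the whole set, 27 of 29 genes with an entry (93.1%) held at least 1 match in a window, against 6348 of 11067 tested genes with an entry (57.4%). Counted by window, 33 of 40 windows of the set (82.5%) held a match, against 38.6% of all 32851 windows of this length. The set was chosen partly as textbook targets of HIF-1, so these shares are no independent finding. Of the 14 genes that fell in LPS minus control and have an entry, 12 held a match, as did 15 of the 15 others. Gpi1 and Tpi1, the 2 without one, both fell. ACGTG also lies within CACGTG, the E-box read by other factors, which 4 of the 29 genes (13.8%) and 9.40% of tested genes held. A match is a run of letters and no binding was measured.

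**Figure D5:**
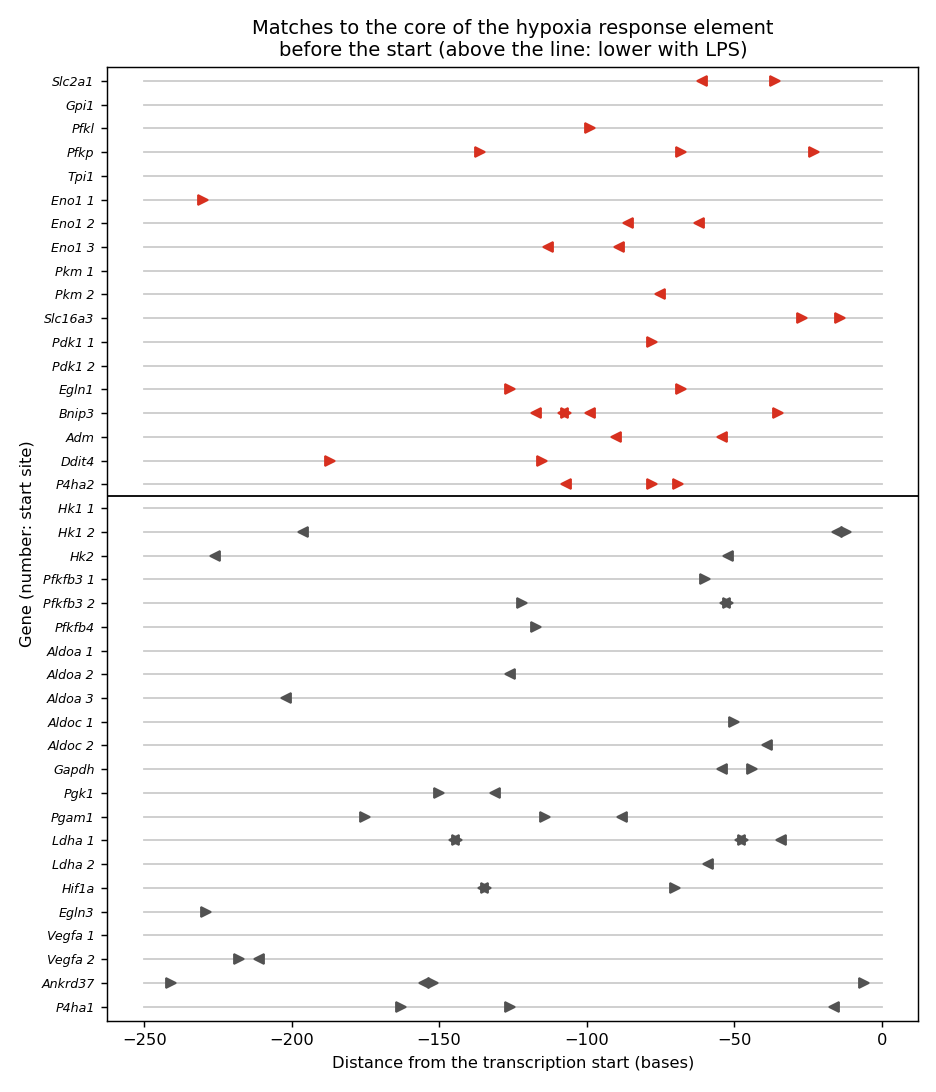
Positions of ACGTG and GCGTG in the 250 bases before each listed start site, for genes that fell in LPS minus control (above the line) and the others (below); triangles point right for the gene's own strand and left for the other, and overlapping triangles are matches on both strands at one place. Each row has up to 5 matches, and Gpi1 and Tpi1 are the genes with no match at any listed start.

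No gene of the set passed with HF alone. In HF minus control 0 of 31 genes passed with limma, where 0.882% of all genes did, and 6 genes were lower and 0 higher at an unadjusted p under 0.05, where 11.5% of all genes were lower and 19.7% differed in either direction. The median difference was -0.22 against -0.07 over all genes, and 23 of 31 differences were negative. The sign depended on the scaling: with median scaling 12 of 31 were negative and the median was 0.16 against 0.32 over all genes, and with quantile normalization 17 were negative and the median was -0.01 against 0.04. Ndrg1, with 44.4 and 45.5 in HF and 69.4 and 81.2 in control cells, had a difference of -0.74 ± 0.14 (adjusted p = 0.0953), and all HF values lay below all control values. Ddit4 had 36.5 and 37.4 in HF and 104 and 58.2 in control cells, a difference of -1.07 ± 0.27 (adjusted p = 0.142). Of the genes that rose in LPS+HF minus LPS, the differences here were 0.13 ± 0.22 for Pfkl, -0.14 ± 0.12 for Slc16a3, 0.29 ± 0.18 for Pdk1, -0.39 ± 0.22 for Egln1 and -0.61 ± 0.20 for P4ha2. Without control replicate 1 Ndrg1 fell by 0.85 (adjusted p = 0.0391; 1.64% of all genes fell). The values of 4 genes that did not pass moved by over 1.5 times without that array: -0.52 against 0.94 with it for Aldoc, -0.11 against 1.17 for Egln3, -0.32 against -0.94 for Bnip3 and -3.21 against -1.59 for Ankrd37. After the correction for local unevenness 6 genes fell (Gpi1, Eno1, Bnip3, Ndrg1, Ankrd37 and Ddit4; 5.95% of all genes), of which Ankrd37 kept 1 array in each group. Without control replicate 2, which left the uneven array alone, 18 genes passed, where 45.3% of all genes did.

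With HF present in both groups 1 gene was called. In LPS+HF minus HF, Ndrg1 fell by 0.98 ± 0.14 (adjusted p = 0.0418), with signals of 23.1 and 22.5 in LPS+HF and 44.4 and 45.5 in HF cells, and no other gene passed, where 0.374% of all genes fell and 0.904% rose. The median difference was -0.22 against -0.08 over all genes. Egln1 had 0.716 and 0.786 in LPS+HF and 1.12 and 1.04 in HF cells, a difference of -0.53 ± 0.22 (adjusted p = 0.532), and its arrays did not overlap. Bnip3 had 83.3 and 74.3 in LPS+HF and 136 and 118 in HF cells, a difference of -0.68 ± 0.38 (adjusted p = 0.739). Hk2 differed by -0.51 ± 0.14 here, with 6.55 and 5.65 in LPS+HF and 8.38 and 8.98 in HF cells, against -0.51 ± 0.14 in LPS minus control. With 1 control array left out Bnip3 passed too (adjusted p = 0.0482), and with any 1 of the other arrays left out no gene of the set did.

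Whether the response to LPS differed with HF was tested by the interaction. With limma 0 of 31 genes passed it, where 0.0534% of all genes did (12 genes), and 17 genes had an unadjusted p under 0.05 (11.6% of all genes did), 15 of them with a positive interaction (6.3% of all genes). The median was 0.71 against 0.02 over all genes. The values for the genes above were 1.92 ± 0.30 for Egln1 (adjusted p = 0.143), 2.15 ± 0.29 for P4ha2 (adjusted p = 0.107), 1.64 ± 0.20 for Ndrg1 (adjusted p = 0.0965) and 2.71 ± 0.54 for Bnip3 (adjusted p = 0.191). Gapdh had 0.00 ± 0.28 on the probe used and Hk2 0.00 ± 0.20. The other Gapdh probes had positive interactions, between 0.16 and 0.96, of which none passed. Without control replicate 1, Egln1 (1.63, adjusted p = 0.0478), Bnip3 (2.09, adjusted p = 0.0463) and Ndrg1 (1.76, adjusted p = 0.0432) passed, where 0.107% of all genes had a positive call. Of the genes that did not pass, Aldoc turned to 0.51 without that array, against -0.95 with it, Egln3 to 0.58, against -0.70, and Ankrd37 came to 3.46, against 1.84. After the correction for local unevenness 10 genes passed with a positive interaction (2.14% of all genes), and Pfkfb3 with a negative one (-1.04, adjusted p = 0.0309). Without control replicate 2, 22 genes passed, where 35.3% of all genes did.

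Other probes of the set's genes gave the spread within a gene. The 31 tested genes had 55 probes, of which 54 were fitted, and 14 genes had more than 1; p-values here are adjusted over all 30342 probes fitted. In LPS minus control the 3 Gpi1 probes gave -1.71, -1.25 and 0.06, the last with a standard error of 0.82. The 2 other Ldha probes fell, by 0.87 (adjusted p = 0.0454) and 0.89 (adjusted p = 0.0191), where the brightest probe differed by 0.01. The second Egln3 probe fell by 1.09 (adjusted p = 0.0145). The 4 Bnip3l probes lay between -0.99 and -0.22, and 1 of them passed (-0.99, adjusted p = 0.0231). The second Pfkfb3 probe did not pass, with 0.78 ± 0.59 in LPS minus control and -1.17 ± 0.59 in the comparison of LPS+HF with LPS. The Ndrg1 probe missed the threshold in LPS+HF minus HF under this adjustment (adjusted p = 0.0507). The 7 Gapdh probes lay between -1.04 and -0.14 in LPS minus control, and 2 passed. In LPS+HF minus LPS the Gapdh probe used gave -0.17 and the others between 0.22 and 0.37, and none passed. The dimmer Vegfa probe rose by 0.84 in LPS minus control (adjusted p = 0.0390) and had -1.09 with both agents against LPS alone (adjusted p = 0.0301), where the brighter one differed by 0.19 and -0.30. The second Slc16a3 probe gave 0.00 and 0.92 in these comparisons, with a standard error of 0.72.

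The wider pathways were read from 2 further lists. Of 48 other genes of glucose metabolism, 38 were tested: 6 fell and 1 rose in LPS minus control, where 6.34% of all genes fell and 4.8% rose, and 2 rose and 2 fell in LPS+HF minus LPS, where 2.99% of all genes rose and 3.26% fell. Of 48 other hypoxia regulators and targets, 42 were tested: 10 fell and 6 rose in LPS minus control, and 7 rose and 3 fell in LPS+HF minus LPS. With median scaling the glucose list had 2 falls and 1 rise and the hypoxia list 1 fall and 3 rises in LPS minus control. Of all 22460 genes 262 fell and 572 rose there. In LPS+HF minus LPS the counts with median scaling were 0 for both lists, where limma called 200 of all genes. The median difference of the hypoxia list was 0.31 in LPS+HF minus LPS and -0.27 in LPS minus control (0.46 and 0.08 with median scaling, where all genes had 0.08 and 0.27). That of the glucose list was -0.07 and -0.06 in these comparisons, where all genes had -0.07 and -0.08. Fam162a, a hypoxia-induced mitochondrial protein, had 58.1 and 52.0 in LPS+HF, 29.8 and 30.9 in LPS, 77.3 and 77.9 in HF and 84.2 and 95.3 in control cells. It fell by 1.56 in LPS minus control (adjusted p = 0.00373) and rose by 0.86 in LPS+HF minus LPS (adjusted p = 0.0291). Gbe1, the glycogen branching enzyme, which stood in both lists, had 15 and 11.9 in LPS+HF and 6.28 and 6.41 in LPS cells and rose by 1.07 (adjusted p = 0.037). Ero1a, an endoplasmic reticulum oxidase, had 4.44 and 3.57 in LPS+HF and 1.93 and 2.10 in LPS cells and rose by 0.99 (adjusted p = 0.0423). Eno3, the muscle enolase, fell by 1.82 in LPS minus control (adjusted p = 0.00862).

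Nos2 and Hmox1, known HIF-1 targets that also belong to inflammatory and oxidative stress responses, went the other way. Nos2, the inducible nitric oxide synthase, had 12.1 and 9.03 in LPS+HF, 25.5 and 29.5 in LPS, 1.66 and 1.94 in HF and 3.77 and 3.80 in control cells. It rose by 2.86 in LPS minus control (adjusted p = 0.00187) and 2.54 in LPS+HF minus HF (adjusted p = 0.00448), and fell by 1.39 in LPS+HF minus LPS (adjusted p = 0.0201). Hmox1, which degrades heme, had 57.2 and 44.4 in LPS+HF, 171 and 158 in LPS, 42.8 and 41.7 in HF and 44.5 and 48.8 in control cells, rose by 1.82 in LPS minus control (adjusted p = 0.00414, and 0.00652 without control replicate 1, where its probe lay in the dimmed area) and fell by 1.70 in LPS+HF minus LPS (adjusted p = 0.011). Both had their highest signals on the LPS arrays. Tfrc, the transferrin receptor, rose by 1.37 in LPS minus control (adjusted p = 0.00585) and by 1.13 in LPS+HF minus HF (adjusted p = 0.0269). Slc2a4, the insulin-responsive glucose transporter, fell by 0.91 in LPS+HF minus LPS (adjusted p = 0.0226). Slc16a7, the monocarboxylate transporter MCT2, had 0.106 and 0.134 in LPS+HF, 0.230 and 0.197 in LPS, 0.289 and 0.208 in HF and 0.909 and 0.699 in control cells. It fell in LPS minus control as well as in HF minus control, where its difference was -1.70 (adjusted p = 0.0474). It was the one gene of the glucose list that passed in HF minus control, a call lost without control replicate 1 (-1.51).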

How the data were processed

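Per the labels' protocols, RNA from BV-2 cells was labelled with Cy3 and hybridised to single-colour Agilent arrays. Per the file headers, the deposited intensity of each spot was made by Agilent Feature Extraction 11.5.1.1, which subtracts background and corrects spatial trend. The log2 values of the authors' series matrix were deposited after scaling by the 75th percentile of each array and centring of every probe on its median, as recomputing them showed, and served as an alternative. The 75th percentile signal was 247 to 286 on arrays without HF and 347 to 527 on arrays with HF, 48.4% to 55.6% of spots were well above background, 0 spots were saturated, and the number of arrays limits the precision.

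Processed signals were taken to log2, averaged over unflagged spots and set relative to the 75th percentile of the array. Probes were kept where both arrays of some group were well above background (30342). Symbols came from RefSeq transcript names (28026 of 55681 probes), and others kept the file's name. Group means over all 8 arrays were fitted with limma 3.58.1 (R 4.3.3; 4 residual and 2.04 prior degrees of freedom), with Benjamini-Hochberg adjustment over 22460 genes, two-sided, in 5 comparisons: LPS and HF each minus control, LPS+HF minus each single agent, and the interaction, (LPS+HF minus HF) minus (LPS minus control). The fit was tested on simulated data. A fold against signals below background uses the array's lowest signal above it. Replicate numbers were not taken to pair the samples in the main fit. The correlations of replicate differences were 0.01 to 0.27 for pairs of groups with control, which include the uneven array. For pairs of groups without control they were -0.09 to 0.05. These values were not taken to settle whether the samples are paired.

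Alternatives were normexp (offset 50, on median signals, since mean signals are not in the files used) with quantile normalization, quantile normalization, median scaling, the authors' matrix, other filters and probe rules, the replicate block, only the arrays compared, a trended robust variance, and leaving out each array. A correction for local unevenness (windows of 30 rows and 15 columns of spots, masking spots dimmed over 4-fold) was planned; combining it with the block and leaving out both marked arrays were added after the data were seen. A slide or scan block was not run, as there was 1 of each.

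The set, the lists and the tests were chosen with earlier results of these data known. All 32 genes are accounted for, with values per array for those that passed and for Hif1a, Gapdh and Ldha; other pathway genes are the up to 3 largest rises and falls that passed per comparison, and Actb. Tables were made in Python 3.11.15 (numpy 2.4.6, pandas 2.3.3) and plots in matplotlib 3.10.9.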

Additional observations from a re-analysis of the deposited data

How the results depend on the processing

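Of 40 named results that passed, followed through 839 alternative fits, 1 turned direction and 285 missed the threshold. The one was Pkm in LPS minus control, 0.45 under normexp background correction with quantile normalization (normexp below). The sign of the other 39 held in each fit run, but these results were picked for passing on the same arrays. Many of the fits also could not turn a sign. The replicate block, the trended variance and only the arrays compared leave an estimate unchanged for a gene with no array missing. So does leaving out an array outside the comparison. Counts of calls are given below as genes and then genes of the set.

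In LPS minus control 2502 and 17 passed. The counts were 1009 and 9 under normexp, 834 and 10 under median scaling, 822 and 9 with no filter on dim probes, 67 and 0 with only the arrays compared (limma; 3883 genes at an unadjusted p under 0.05), 6611 genes with the spatial correction, 5690 with it and the replicate block, and 4847 without both marked arrays. In HF minus control 198 and 0 passed. The counts were 8 genes under normexp, 37 under median scaling, 13 with no filter, 44 with the replicate block, 0 with only the arrays compared (1717 at an unadjusted p under 0.05), 2431 and 6 with the spatial correction, and 1316 and 2 with it and the block. In LPS+HF minus LPS 1404 and 7 passed. The counts were 236 and 2 under normexp, 200 and 3 under median scaling, 168 and 0 with no filter, 592 and 3 with the replicate block, 6645 and 15 with the spatial correction, 5731 and 12 with it and the block, and 7397 and 15 both with only the arrays compared and without both marked arrays. In LPS+HF minus HF 287 and 1 passed. The counts were 85 and 0 under normexp, 155 and 0 under median scaling, 127 and 0 with no filter, 0 genes of the set under quantile normalization and with the replicate block, 1164 and 4 with the spatial correction, 850 and 2 with it and the block, and 453 genes without both marked arrays. For the interaction 12 and 0 passed. The counts were 5 genes under quantile normalization, 0 under normexp, median scaling, no filter, the filter for all 8 arrays, the replicate block and the trended variance (1437 to 2658 at an unadjusted p under 0.05), 824 and 11 with the spatial correction, 133 and 5 with it and the block, and 34 genes without both marked arrays. The cause of these moves was not tested. Fits on fewer arrays have fewer residual degrees of freedom, and their counts moved both ways. With only the arrays compared, the count of genes went from 2502 to 67 in LPS minus control. In LPS+HF minus LPS it went from 1404 to 7397.

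Leaving out 1 array at a time gave 175 to 11823 genes and 1 to 23 of the set in LPS minus control, 10 to 10169 and 0 to 18 in HF minus control, 0 to 6567 and 0 to 17 in LPS+HF minus LPS, 56 to 887 and 0 to 2 in LPS+HF minus HF, and 0 to 7934 and 0 to 22 for the interaction.

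The split of calls moved with the scaling. In LPS minus control 1078 genes rose and 1424 fell, against 1183 and 1076 under quantile normalization and 572 and 262 under median scaling. In HF minus control 32 rose and 166 fell, against 45 and 108 under quantile normalization, 12 and 25 under median scaling and 0 and 8 under normexp. In LPS+HF minus LPS 672 rose and 732 fell, against 71 and 165 under normexp. In LPS+HF minus HF 203 rose and 84 fell, against 128 and 27 under median scaling and 78 and 7 under normexp. The replicate number as a block moved the count of genes over 1.5 times in HF minus control, LPS+HF minus LPS and the interaction, as given above; the samples share only a number.

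Signal over background limits Slc2a3 and Adm. With 2 arrays per group and 1 uneven control array, a difference that did not pass is not shown to be absent.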
